A study of Mus musculus with 8 samples.

Results

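The genes described here are 6 genes that mark the steroid and peptide hormone output of the fetal testis, namely Star, Cyp11a1, Hsd3b1, Cyp17a1, Hsd17b3 and Insl3. They were taken by gene name from the 24281 named loci of a female expression table and the 23944 named loci of a male one, and all 6 were found once in each. RNA-Seq had been carried out on germ cells of E15.5 mouse gonads, with 2 control and 2 Snf5 CKO libraries in each sex. The comparison addresses how loss of SNF5, a core component of SWI/SNF chromatin remodelers that is encoded by Smarcb1, changes the germ cell transcriptome in each sex.

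The labels give C57BL/6 as the strain of all groups, whereas the study's methods describe a mixed genetic background of C57BL/6 with an inbred and an outbred further strain. All groups carried Oct4-EGFP, the transgene by whose fluorescence the germ cells were sorted. Snf5 CKO embryos were Snf5 fx/Δ with TNAP-Cre, so every cell carried 1 deleted Snf5 allele, and the floxed allele was recombined by a Cre knocked into the Alpl gene, which is active in primordial germ cells. Controls were a mixture of Snf5 fx/+, Snf5 fx/Δ and Snf5 fx/+ with TNAP-Cre germ cells, so some of them also carried the deleted allele or the Cre. The study's methods call the libraries of a group biological duplicates. More than 1 mouse is listed for each female and each male control sample, but 1 mouse for each male Snf5 CKO sort. Male Snf5 CKO replicate 1 is listed with more than 1 sort, so its library may hold more than 1 embryo. The tests thus measure the spread between such samples and, where embryos were pooled, not between single animals. In males the number of mice per sample was lower in Snf5 CKO, so it went with genotype, and their parts cannot be told apart.

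In the fetal testis, Leydig cells between the cords convert cholesterol into androgens. STAR delivers cholesterol to the inner mitochondrial membrane, CYP11A1 cleaves its side chain to give pregnenolone, and HSD3B1 and CYP17A1 turn this into androstenedione, while Leydig cells also secrete the peptide INSL3, which guides testis descent. The last step to testosterone is catalysed by HSD17B3, which in the mouse fetal testis is known from the Sertoli cells of the cords rather than from Leydig cells.

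The libraries carried the marks of their labels. Ddx4, a germ cell RNA helicase, stood at 203 to 363 FPKM in the female libraries and at 237 to 565 in the male ones, above every one of the 6 genes in every library. FPKM is a level scaled by transcript length and by library size. Loci without a gene name took 6.56% and 42.1% of the FPKM sum in male control replicates 1 and 2. In male Snf5 CKO they took 5.46% and 35.4%, and in the female libraries 9.94% to 36.7%. How far this enters comparisons between replicates was not tested. Smarcb1 fell in Snf5 CKO from 22.9 ± 0.721 to 3.36 ± 1.25 FPKM (SD, n = 2) in females and from 154 ± 18.4 to 9.39 ± 0.940 in males. By the spacing of low values, 1 fragment per kilobase of transcript was worth 0.0185 to 0.0451 FPKM in the female libraries and 0.0221 to 0.0421 FPKM in the male ones, if fragments are taken as 200 bases long, and the deeper libraries have the smaller values. In bulk RNA, fewer cells of a type and less RNA per cell cannot be told apart.

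In male germ cells, Cyp11a1, Cyp17a1 and the locus of Insl3 were lower in Snf5 CKO, by 3.38 to 9.01 times in the ratio of means, and Hsd17b3 was higher by 4.19 times. Calls required a log2 fold change of 1 or more in either direction together with a limma adjusted p below 0.05. By this rule 3 of the 6 genes were lower and 1 was higher, where 17.5% of the 12368 tested loci were lower and 14.3% were higher. Hsd3b1 and Star, whose values were also below the controls in both Snf5 CKO libraries, did not pass. The 2 Snf5 CKO values were under the 2 control values for 5 of the 6 genes and over them for 1, where 39.9% of all tested loci lay below and 34.5% above. The median log2 fold change was -1.43 over the 6 genes and -0.07 over all tested loci.

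**Figure D1:**
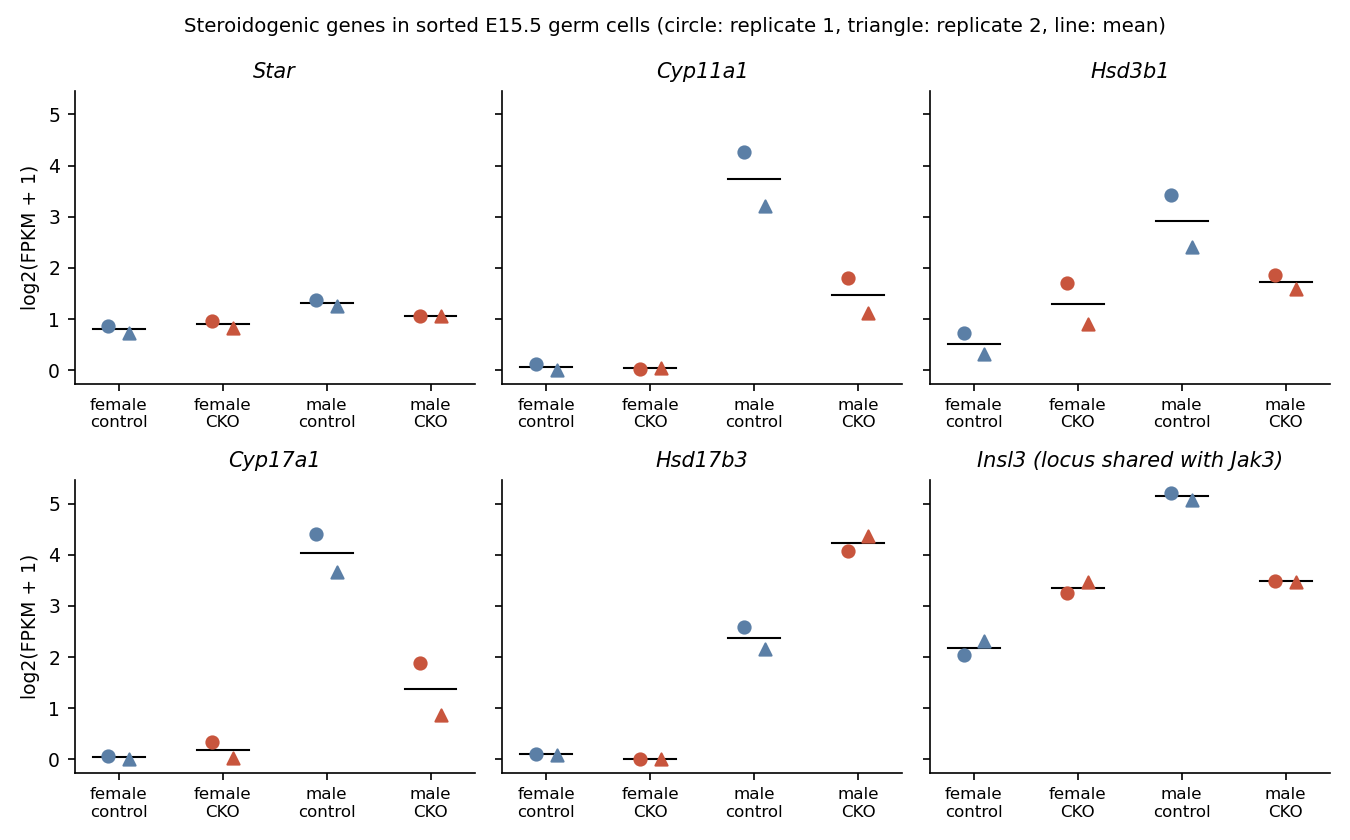
Each panel shows 1 gene, with log2(FPKM + 1) on the vertical axis and the 4 groups on the horizontal axis; circles are replicate 1, triangles replicate 2, and lines the mean of the 2 libraries. In males the Snf5 CKO points lie below the controls in every panel but that of Hsd17b3, where they lie above, and in females Cyp11a1, Cyp17a1 and Hsd17b3 are near 0.

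Star lies at chr8:25808513-25815982 on the plus strand of mm10. In males it was at 1.59 and 1.39 FPKM in the controls and at 1.09 and 1.08 in Snf5 CKO. The groups did not overlap in FPKM but lay close together, and all 4 values were far below those of Cyp11a1 in the controls. By percentile rank among the named genes of a library, Star overlapped between the groups. It stood at 52.4 and 50.6 in the controls and at 51.5 and 50.8 in Snf5 CKO. Its log2 fold change was -0.25 (SE 0.16, adjusted p = 0.257, limma), with a 95% interval from -0.68 to 0.17, so a change in Star was not detectable.

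Cyp11a1, whose product is the first enzyme of the pathway, lies at chr9:58015017-58027023 on the plus strand. Male controls had 18.2 and 8.22 FPKM, against 2.47 and 1.18 in Snf5 CKO. Both Snf5 CKO libraries were below both controls, and in each group replicate 1 was about as far above replicate 2, by 2.21 times in the controls and 2.09 times in Snf5 CKO. Its log2 fold change was -2.27 (SE 0.43, adjusted p = 0.0126, limma), and the means fell from 13.2 ± 7.04 to 1.83 ± 0.912 FPKM (SD, n = 2). Within replicate 1 the control was 7.36 times the Snf5 CKO library, and within replicate 2 it was 6.96 times.

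Hsd3b1, which oxidises pregnenolone and its derivatives, lies at chr3:98852197-98859794 on the minus strand in the male table. It was at 9.78 and 4.32 FPKM in the male controls and at 2.64 and 2.0 in Snf5 CKO. The groups did not overlap, with control replicate 1 standing well above the other libraries. The log2 fold change of -1.20 (SE 0.38) missed the threshold (adjusted p = 0.0525, limma), and with the replicate number as a block, since the male columns call these numbers experiments, it passed (adjusted p = 0.0041). Without control replicate 2 it was -1.71 (adjusted p = 0.0112), without Snf5 CKO replicate 1 it was -1.34 (adjusted p = 0.0439), and without control replicate 1 it was -0.69 (adjusted p = 0.119). Hsd3b6, a close copy of Hsd3b1 that is used by Leydig cells of the adult testis, was at 0.0229 FPKM or less in all 8 libraries.

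Cyp17a1, which makes androstenedione from progesterone, lies at chr19:46667165-46673000 on the minus strand. Male controls had 20.2 and 11.6 FPKM, against 2.71 and 0.819 in Snf5 CKO. The groups were far apart, and replicate 1 was again above replicate 2 in both. The log2 fold change was -2.65 (SE 0.44, adjusted p = 0.00864, limma), the most negative of the 6. The control mean of 15.9 ± 6.08 FPKM was 9.01 times the Snf5 CKO mean of 1.76 ± 1.34 (SD, n = 2). For Cyp11a1, Cyp17a1 and the locus of Insl3, the confidence bounds that the authors' program gave each library did not reach 0 in either control. They did in both Snf5 CKO libraries. The bounds of the groups still overlapped. In control replicate 2 they ran from 0.394 to 16.1 FPKM for Cyp11a1 and from 1.28 to 21.9 for Cyp17a1. In Snf5 CKO replicate 1 they reached up to 5.32 and 5.77 FPKM.

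Hsd17b3 lies at chr13:64058175-64089411 on the minus strand in the male table. Male controls had 5.05 and 3.45 FPKM, against 16.0 and 19.7 in Snf5 CKO. Both Snf5 CKO libraries were above both controls, which is the opposite order to the other 5 genes. Its log2 fold change was 1.85 (SE 0.24, adjusted p = 0.0047, limma), and replicate 1 was not above replicate 2 in Snf5 CKO.

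Insl3 had no value of its own. It lies at chr8:71689214-71690575 on the plus strand, wholly inside the span of Jak3, a cytokine receptor kinase at chr8:71676296-71690575 on the same strand (GENCODE, GRCm38), and both tables give 1 merged locus for the pair. In males this locus was at 35.9 and 32.7 FPKM in the controls and at 10.3 and 10.1 in Snf5 CKO. The replicates of a group lay close together here, unlike those of Cyp11a1 and Cyp17a1, and the groups were far apart. The log2 fold change was -1.66 (SE 0.17, adjusted p = 0.0029, limma), and how much of it belongs to Insl3 cannot be told from the tables.

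In female germ cells, Cyp11a1, Cyp17a1 and Hsd17b3 were at or near 0, and the Insl3 and Jak3 locus was 2.61 times higher in Snf5 CKO. Only 2 of the 6 genes had a mean of at least 1 FPKM and were tested, of which 1 was called higher and 0 lower, where 17.2% of the 11642 tested loci were higher and 21.8% lower. The filter keeps a gene that is high in 1 group alone, so the 2 that passed do not stand for the 6.

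The Insl3 and Jak3 locus was at 3.13 and 3.99 FPKM in the female controls and at 8.52 and 10.1 in female Snf5 CKO. The groups did not overlap, and the Snf5 CKO values were close to those of male Snf5 CKO, although the tables were normalized separately. The log2 fold change was 1.18 (SE 0.20, adjusted p = 0.0027, limma). Hsd3b1 was at 0.645 and 0.241 FPKM in the controls and at 2.24 and 0.878 in Snf5 CKO. It was higher in both Snf5 CKO libraries, with replicate 1 above replicate 2 in each group, but the log2 fold change of 0.79 (SE 0.30, adjusted p = 0.0581, limma) did not pass. Leaving out 1 library gave 0.39 without Snf5 CKO replicate 1 (adjusted p = 0.198, limma), 0.59 without control replicate 2 (adjusted p = 0.109), 0.99 without control replicate 1 (adjusted p = 0.011) and 1.18 without Snf5 CKO replicate 2 (adjusted p = 0.00163), and it was called in the last of these alone.

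The other 4 genes were below the filter in females. Star was at 0.831 and 0.652 FPKM in the controls and at 0.960 and 0.768 in Snf5 CKO, and the groups overlapped. Cyp11a1 was at 0.0857 FPKM and listed at 0 in the controls, and at 0.0229 and 0.0350 in Snf5 CKO. These levels correspond to at most 1.90 fragments per kilobase of transcript, by the estimated depth, and show no order between the groups. Cyp17a1 was at 0.0548 FPKM and listed at 0 in the controls, and at 0.264 and 0.0224 in Snf5 CKO, where 1 library stood above the rest. Hsd17b3 was at 0.0834 and 0.0648 FPKM in the controls and listed at 0 in both Snf5 CKO libraries.

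By mean FPKM in the male controls, the Insl3 and Jak3 locus was highest, followed by Cyp17a1, Cyp11a1, Hsd3b1, Hsd17b3 and Star. The ranges of Cyp17a1 and Cyp11a1 overlapped, as did those of Hsd3b1 with Cyp11a1 and with Hsd17b3. Within each control library, however, the order of the genes was the same, and differences between genes were not tested. In male Snf5 CKO the order began with Hsd17b3, then the Insl3 and Jak3 locus, and the other 4 genes lay between 0.819 and 2.71 FPKM.

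Of 18 partners and further enzymes, 17 were found in the male table, 12 were tested, 2 were higher and 0 were lower, with a median log2 fold change of 0.23. This is 2 of 12 higher beside 14.3% of all tested male loci, so the share of higher calls was near the background. Hsd17b1, which makes estradiol from estrone and reduces androstenedione in rodents, was at 3.28 and 3.08 FPKM in the controls and at 13.2 and 23.4 in Snf5 CKO, a log2 fold change of 2.16 (adjusted p = 0.00577, limma). Akr1cl, an aldo-keto reductase, was at 10.4 and 5.88 FPKM in the controls and at 30.2 and 39.4 in Snf5 CKO, a log2 fold change of 2.0 (adjusted p = 0.00706, limma). In both, as in Hsd17b3, the Snf5 CKO libraries were the higher ones. In females 12 of the 18 were tested, 3 were higher and 0 were lower, beside 17.2% and 21.8% of all tested loci, led by Tspo, the translocator protein of the outer mitochondrial membrane, with a log2 fold change of 2.15 (adjusted p = 0.00895, limma) and Akr1cl with 1.72 (adjusted p = 0.00698).

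Of 19 regulators and receptors of Leydig cells, 10 were tested in males, 3 were higher and 2 were lower, beside 14.3% and 17.5% of all tested loci. Log2 fold changes were 1.81 for Gata4, a gonadal transcription factor (adjusted p = 0.0113, limma), and 1.68 for Nr5a1, which encodes the factor SF-1 that activates steroid enzyme genes (adjusted p = 0.00819). Nr5a1 was at 3.76 and 2.08 FPKM in the controls and at 10.5 and 12.1 in Snf5 CKO, so its groups did not overlap. Gata4 and Nr5a1 are also expressed by Sertoli cells. The others called, named after their values were seen, were Gli1 at 1.06, Pdgfra at -1.09 and the Ren1 and Ren2 locus at -1.38 (adjusted p = 0.0142, 0.0312 and 0.049, limma). Pdgfra, with a Snf5 CKO mean of 0.489 FPKM, passed the filter through the controls alone. Lhcgr, the receptor for luteinizing hormone, was at 0.374 and 0.0656 FPKM in the male controls and listed at 0 in both Snf5 CKO libraries, too low for the test. In females 7 were tested, and Nr4a1 alone was called, at 1.20 (adjusted p = 0.0057, limma), beside 17.2% of all tested loci higher and 21.8% lower. With a control mean of 0.865 FPKM, Nr4a1 passed the filter through Snf5 CKO alone. Nr5a1 and Gata4 had 0.85 and 0.81 in females (adjusted p = 0.0192 and 0.0165, limma), under the threshold of 1.

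**Figure D2:**
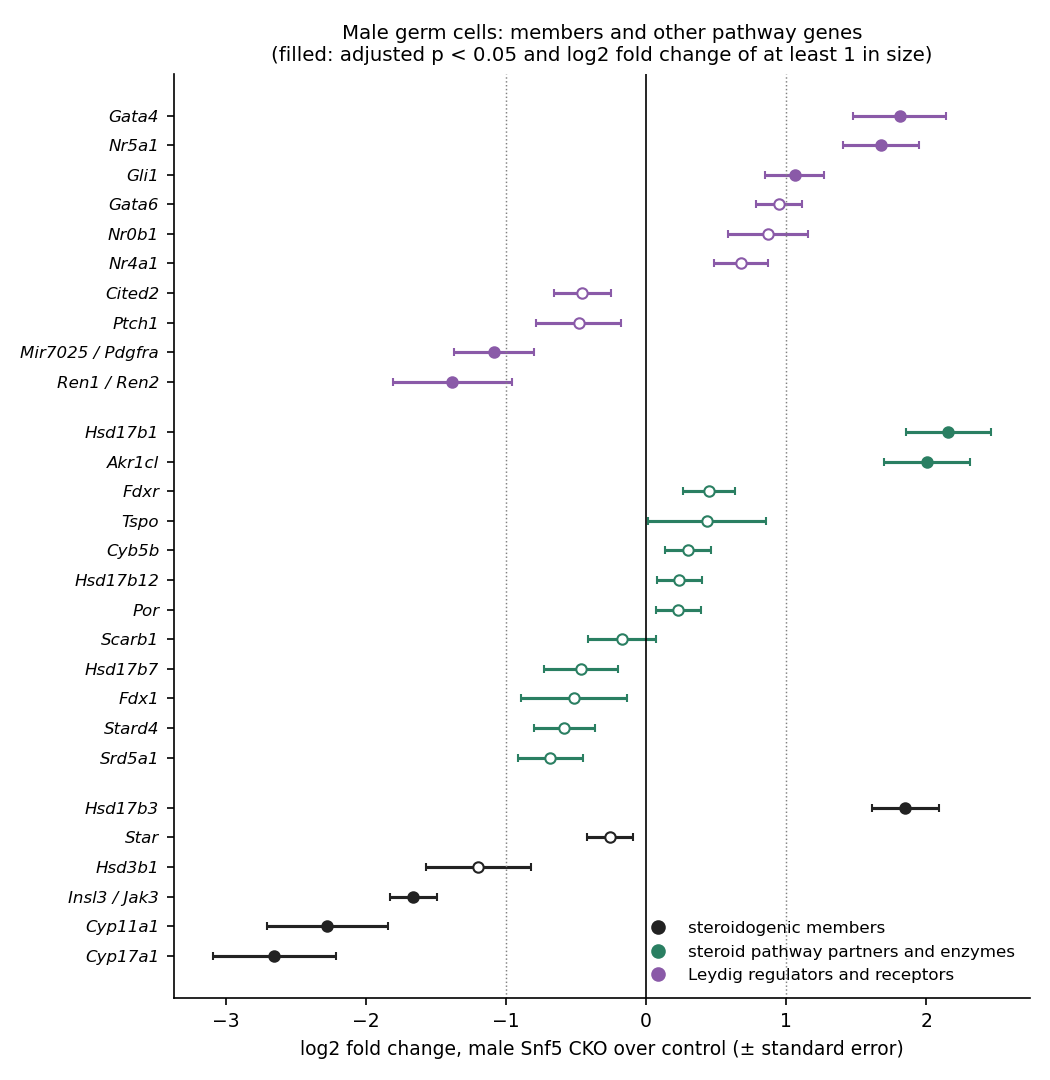
Points give the log2 fold change of male Snf5 CKO over control for each tested gene, bars its standard error, colours the gene list, and filled points pass both thresholds; dotted lines mark 1 and -1. Cyp17a1 at -2.65 and Cyp11a1 at -2.27 lie farthest to the left, while Hsd17b1 at 2.16 lies farthest to the right.

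Markers of other gonadal cells moved in the same libraries, where 14.3% of all tested male loci were higher and 17.5% lower. All 14 tested genes of 15 Sertoli genes were higher in male Snf5 CKO. Among these, Cldn11, with a control mean of 0.161 FPKM, passed the filter through Snf5 CKO alone. The sum of the 15, which uses no filter, was 279 and 219 FPKM in the controls and 1128 and 1530 in Snf5 CKO. Log2 fold changes were 2.73 for Cst9 and 2.67 for Aard (adjusted p = 0.00333 and 0.0032, limma), and the defining genes Sox9, the Sertoli transcription factor, and Amh, the anti-Müllerian hormone, had 1.71 and 2.37 (adjusted p = 0.00326 and 0.00409). Hsd17b3 was higher in the same libraries as this list. Of 12 stromal and peritubular genes, 4 were tested, 0 were higher and 3 were lower. Among the tested, Col1a1, Col1a2 and Postn had Snf5 CKO means of 0.823, 0.510 and 0.423 FPKM. These passed the filter through the controls alone, so the count does not stand for the 12. The sum of all 12, which uses no filter, was 25.7 and 16.1 FPKM in the controls and 5.48 and 4.74 in Snf5 CKO. Cyp11a1 and Cyp17a1 were lower in the same libraries as this list. In the controls both were higher in replicate 1, as were the stromal and the Sertoli sum alike. Col1a1, a fibrillar collagen, was at 5.54 and 2.71 FPKM in the controls and at 0.966 and 0.680 in Snf5 CKO. The purities that the study lists for the sorted cells overlapped between control and Snf5 CKO in each sex. The part of the other gonadal cells in the results for the 6 genes was not tested.

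Among the remaining lists in males, 14 loci of blood and endothelial genes summed to 76.3 and 119 FPKM in the controls and to 68.5 and 74.5 in Snf5 CKO, with 0 higher and 2 lower of 8 tested. These were Hbb-y, an embryonic globin, at -1.85 and Tek, an endothelial receptor, at -1.16 (adjusted p = 0.00454 and 0.00629, limma). Their Snf5 CKO means were 0 and 0.686 FPKM, so both passed the filter through the controls alone. The locus of the adult globins Hba-a1 and Hba-a2 had -0.33 (adjusted p = 0.408, limma). Of 9 pre-granulosa genes, 4 were tested, 2 were higher and 1 was lower, and Foxl2, the defining factor, was at 0.105 FPKM or less. Of 8 germ cell genes, all tested, 0 were higher and 4 were lower, and Ddx4 had -0.93 (adjusted p = 0.0363, limma). All these counts stand beside 14.3% higher and 17.5% lower among all tested male loci.

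In females, where Cyp11a1, Cyp17a1 and Hsd17b3 were near 0, 5 of 7 tested Sertoli genes and 5 of 8 tested pre-granulosa genes were higher in Snf5 CKO. Called lower were 0 of the Sertoli and 1 of the pre-granulosa genes, beside 17.2% of all tested loci higher and 21.8% lower. Sox9 and Amh, however, were at 0.132 FPKM or less in every female library, and the log2 fold change of Foxl2 was 0.77 (adjusted p = 0.0412, limma), under the threshold of 1. The stromal sum was 17.3 and 9.37 FPKM in the controls and 7.22 and 7.26 in Snf5 CKO. Col1a1 had -1.11 (adjusted p = 0.0141, limma), and with a Snf5 CKO mean of 0.382 FPKM it passed the filter through the controls alone. The Insl3 and Jak3 locus was higher in female Snf5 CKO while the stromal sum was lower. Pecam1, an adhesion molecule of endothelial and other cells and the only called gene of 4 tested in the blood and endothelial list, had 2.23 (adjusted p = 0.000212). Other endothelial genes of the list were too low for the test. Control and Snf5 CKO means were 0.118 and 0.00473 FPKM for Cdh5 and 0.269 and 0.0775 for Kdr. For Tek they were 1.13 and 0.541, and for Emcn 0.0371 and 0.0225. None of these means was higher in Snf5 CKO as that of Pecam1 was. The libraries of Tek and Emcn overlapped between the groups, however, and values this low give no firm direction. Pou5f1, whose regulatory sequences drive the reporter used for the sort, rose from 8.63 and 16.7 FPKM in the controls to 295 and 333 in Snf5 CKO, with a log2 fold change of 4.59 (adjusted p = 0.000109, limma), and the part of the sort in these results was not tested.

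**Figure D3:**
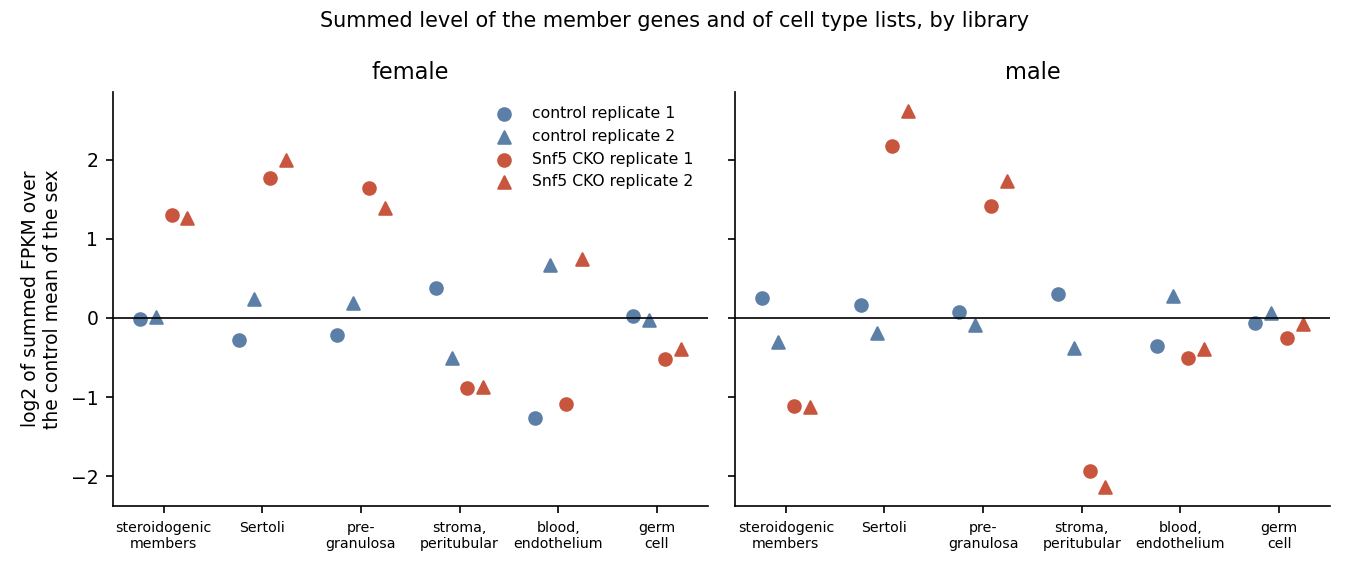
The vertical axis gives the log2 of the summed FPKM of each gene list in a library over the mean of the 2 controls of the same sex; circles are replicate 1 and triangles replicate 2. In males the sum of the 6 genes and the stromal sum are lower in both Snf5 CKO libraries while the Sertoli sum is higher, and in females the sum of the 6 genes, which is mostly the Insl3 and Jak3 locus, is higher.

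**Figure D4:**
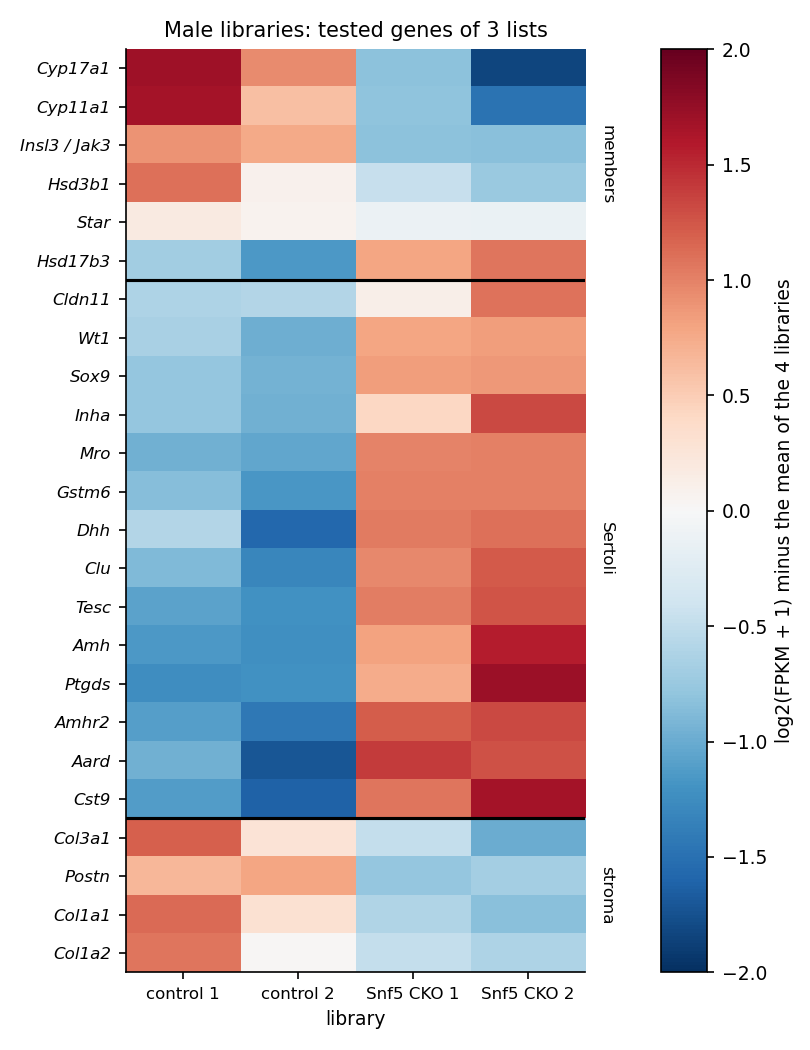
Colours give log2(FPKM + 1) in each male library minus the mean of the 4 libraries, for the tested genes of 3 lists separated by black lines. Hsd17b3 is low in the controls and high in Snf5 CKO like the 14 Sertoli genes, and Cyp17a1 and Cyp11a1 are highest in control replicate 1.

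The mean pattern of the 6 genes over all 8 libraries, each value centred within its table, was shared by many genes. The 5 genes most like it, among 10472 tested in both tables, were Polr1b (r = 0.987), the Mir6904 and Parp1 locus (0.987), Preb (0.986), the 2900008C10Rik and Bcor locus (0.985) and Ubqln1 (0.984). A Pearson r of at least 0.9 was reached by 305 genes, Hsd3b1 itself among them. Every gene was measured in the same 8 libraries, which differ in depth and in replicate number, so these values are a description only. Hsd17b3 itself had r = -0.82 with the mean pattern, against 0.87 to 0.95 for the other 5. Each of the 6 genes is part of the mean it is set against, which draws its r upward.

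Short sequences before the transcript starts of these genes were searched for motifs of factors known to act on steroid enzyme genes, with the motifs chosen after the values were known. RefSeq promoters (GRCm38.p6, windows of 300 bases with 250 of them before the start) were matched for Cyp11a1 (2 starts), Hsd3b1, Hsd17b3 and Insl3, 5 in all, and for neither Star nor Cyp17a1. The first search was for AAGGTCA, a binding motif of SF-1, and, like the later ones, ran over both strands. It matched 0 of the 5, where 4.72% of 32851 promoters hold it. Only after that were 3 shorter motifs tried. AGGTCA, which is contained in the first, is held by 16.3% of all promoters and by 1 of the 5. AGATAA, a motif of the family of GATA4, is held by 11.2% of all and by 1 of the 5, and CACGTG, an E-box, by 7.15% of all and by 0 of the 5. The stretches around both matches are shown with the match in capitals, which starts 28 bases before the start in Cyp11a1 (chr9:58014912-58014941, plus strand) and 134 bases before it in Hsd3b1 (chr3:98859911-98859940, minus strand, where the reverse complement TTATCT is read).
Cyp11a1: gaggaaggggggAGGTCAccgctccatcag
Hsd3b1: agttaaaaaaaaTTATCTccttgattctca
With 4 motifs tried on 5 promoters and shares of this size among all promoters, the 2 matches are a description of these letters and not of binding.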

How the data were processed

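RNA-Seq of sorted germ cells gave 8 libraries, grouped by their labels. The authors mapped reads to mm10 and quantified them with Cufflinks in 1 run per sex, and the deposited values are FPKM per locus with confidence bounds. The submitters' processing notes name TopHat2 2.2.1 and Cuffdiff 2.1.1, while the paper's methods give these version numbers the other way round. Locus starts, counted from 0 in the tables, had 1 added.

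For each table a separate model was fitted in R 4.3.3 by limma 3.58.1 (lmFit, eBayes with trend) on log2(FPKM + 1), over named loci with a mean of at least 1 FPKM, with Benjamini-Hochberg adjustment over all tested loci. The filter can keep a locus that is high in 1 group alone, in the lists as among all tested loci. The pseudocount of 1 understates the changes of low genes. Calls needed a log2 fold change of at least 1 in size and an adjusted p under 0.05. An exact permutation of 2 against 2 libraries cannot go below p = 0.333, so none was used. The fit was tested on simulated data with noise drawn independently for each library. The simulation held no shared replicate effect, so it does not bear on the replicate correlation given below.

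The tables hold no counts. Depth was estimated from low FPKM values of genes with 1 transcript (GENCODE, GRCm38), of which 81.3% to 89.4% lay within 10% of the value of 1, 2 or 3 fragments. This estimate, the use of the confidence bounds and the 4 promoter motifs were chosen after the tables were seen.

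The 6 genes and all lists were chosen with earlier results of these data known. Named from the lists are, per list and sex, the 2 called genes with the largest change, 8 defining genes, genes that share a locus or are a close copy, and the 5 most alike in pattern; not all are printed. The male columns call the replicate numbers experiments. The deviations of replicate 2 from replicate 1 in control and Snf5 CKO correlated at 0.504 across genes in females and 0.595 in males. The alternatives were other pseudocounts, filters, rescalings and variance models, linear FPKM, the block, loci with status OK, summed loci, percentile ranks and leaving out each library. Plots used Python 3.11.15 and matplotlib 3.10.9.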

Additional observations from a re-analysis of the deposited data

Results flagged for a closer look

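For 3 loci both Snf5 CKO libraries lay on opposite sides of the controls in the 2 sexes. The log2 fold change in males minus that in females was -1.99 for Hsd3b1, 1.95 for Hsd17b3 and -2.84 for the Insl3 and Jak3 locus. These differences were not tested, since the tables of the sexes were normalized separately. Hsd17b3 in females was at 0.0834 FPKM or less in every library, so its female direction rests on values near 0.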

How the results depend on the processing

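None of the tested members turned its direction under an alternative, and the same holds for leaving out each library. In males, Cyp11a1 and Cyp17a1 lost their call in 2 of 15 alternatives, linear FPKM and no moderation of variances; Hsd17b3 lost it in 1 (no moderation), and the Insl3 and Jak3 locus in 0. Hsd3b1 gained a call in 5 of 14. Without the filter on low values, Star, Cyp11a1, Cyp17a1 and Hsd17b3 were not called in females (adjusted p from 0.0703 to 0.806, limma).

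Counts are given as higher or lower. With no moderation, the calls among the 6 genes were 0 higher in females, and 0 higher and 1 lower in males, and linear FPKM left 1 lower in males. Leaving out 1 library gave 1 to 2 higher in females, where the 2 came without Snf5 CKO replicate 2, and 3 to 4 lower in males. For the 37 pathway genes in females, 4 were higher in the fit reported, 2 with a mean of at least 5 FPKM, 1 with no moderation and 1 with linear FPKM, and leaving out 1 library gave 4 to 5 higher and 0 to 1 lower, the 1 without control replicate 2. In males, 5 were higher, against 0 with no moderation and 1 with linear FPKM. The 2 lower in males became 1 without the filter, with median-of-ratios rescaling or without trend, and 0 with a mean of at least 5 FPKM, no moderation or linear FPKM, and leaving out 1 library gave 0 to 2, with 0 without control replicate 1 or without Snf5 CKO replicate 2.

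For the Sertoli, pre-granulosa, stromal and blood lists together, 11 were higher and 2 lower in females. A mean of at least 5 FPKM gave 6 and 0, no moderation 2 and 0, and linear FPKM 0 lower. In males 16 were higher and 6 lower, a mean of at least 5 FPKM gave 1 lower, no moderation 2 and 1, and linear FPKM 10 and 0.

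With the replicate number as a block, pairing same-numbered libraries, 4 rather than 2 of these list genes were lower in females, and the call of Hsd3b1 in males was gained (adjusted p = 0.0041, limma); no other call among the 6 genes changed.

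Over all loci, no moderation called 866 higher and 1055 lower in females and 279 and 370 in males, and linear FPKM 1254 and 1535, and 670 and 747, against 2002 and 2543, and 1772 and 2160. Scaling to a common sum gave 1349 higher and 2501 lower in males and moved the median log2 fold change of all loci from -0.07 to -0.24, and median-of-ratios rescaling moved it to 0.07. With 2 libraries a group and depth only estimated, values near 0 FPKM set no order.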
